A study of Homo sapiens with 13 samples.

Results

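The p300/CBP peaks of MDA-MB-231 cells were compared by position with the regions marked by H3K27ac in the same cells. These are cells of an established human line of triple-negative, basal b breast cancer, grown without treatment. The study mapped 3 histone marks, Pol II, CTCF and p300/CBP by chromatin immunoprecipitation and sequencing, and 6 lists of peak positions were used here. The members were the p300/CBP peaks on chromosomes 1 to 22 and X that lay more than 5 Mb from the longest run of N of their chromosome, which is usually the centromere. This rule kept 9050 of the 13984 p300/CBP peaks, out of 233691 peaks in the 6 lists, and 38606 of the 41034 H3K27ac regions. H3K27ac came from 2 replicate libraries that were merged before peaks were called, and p300/CBP from 1 library of pooled immunoprecipitations. The lists hold positions without heights, so depth is unknown, no spread between replicates can be given, and no test between conditions was possible. All intervals are 95% intervals for counting error only.

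p300 and CBP are closely related lysine acetyltransferases that transcription factors recruit to enhancers and promoters, where they acetylate histone H3 at lysine 27 among other residues. H3K27ac is a mark of nucleosomes at active enhancers and promoters. A bound transcription factor usually displaces the nucleosome beneath it, so a histone mark often lies on both sides of the site where factors and their coactivators bind. AP-1, the family of Fos and Jun dimers that includes Fra-1 (FOSL1) and Fra-2 (FOSL2), recognises a 7-base palindromic motif and is abundant in basal breast cancer cells.

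The kept p300/CBP peaks were narrow, with a median width of 150 bp (quartiles 100 and 300 bp), and covered 1.81 Mb. The kept H3K27ac regions had a median width of 1300 bp (quartiles 600 and 2250 bp) and covered 67.1 Mb, or 2.54% of the 2641 Mb of sequence considered. The labelled cell type was compared with its markers at their TSSs, where 48% of all 18525 protein-coding genes had H3K27ac. Of 11 mesenchymal or basal b genes, 9 had H3K27ac over the TSS, among them VIM, AXL, CD44 and PLAU, whereas FOSL1 and SPARC had none there. Of 11 luminal or epithelial genes, 5 did (FOXA1, ERBB3, KRT8, KRT18 and TFF1), whereas ESR1, PGR, GATA3, CDH1, EPCAM and ELF3 had none there. The luminal share was thus close to that of all genes.

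The sequences below are shown because they illustrate the positions that p300/CBP peaks took relative to H3K27ac. Each is the central 200 bp of a peak, from the plus strand of GRCh37, in lower case with the AP-1 heptamer TGANTCA in capitals where it occurs. The first 3 belong to the 5 widest peaks inside H3K27ac regions, of which 2 held the heptamer. The remaining 2 of these peaks, on chromosome 17, are not printed because they shared repeated sequence; they were 1000 and 900 bp wide, their centres lay 50 and 100 bp from the edge, and both overlapped CTCF. The peak 361 kb from TGFB2, a growth factor gene, was the widest inside (1050 bp) and lay 2575 bp from the nearest edge of its region, chr1:218876651-218882251. The peak in an intron of WFDC3 (900 bp) lay 2450 bp from the edge of chr20:44405451-44413101. The intergenic peak 4.77 kb from the TSS of CCL20, a chemokine gene, lay 1375 bp from the edge of chr2:228681451-228684701.
Inside, TGFB2, chr1:218879576-218879775: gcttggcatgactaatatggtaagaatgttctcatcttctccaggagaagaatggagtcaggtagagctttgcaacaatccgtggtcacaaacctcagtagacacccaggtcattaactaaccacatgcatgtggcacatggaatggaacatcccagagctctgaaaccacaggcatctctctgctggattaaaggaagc
Inside, WFDC3, chr20:44407801-44408000: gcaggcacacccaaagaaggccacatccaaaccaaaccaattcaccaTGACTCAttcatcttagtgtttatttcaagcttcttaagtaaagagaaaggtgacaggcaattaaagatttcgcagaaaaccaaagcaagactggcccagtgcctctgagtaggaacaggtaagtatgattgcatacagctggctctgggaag
Inside, CCL20, chr2:228683226-228683425: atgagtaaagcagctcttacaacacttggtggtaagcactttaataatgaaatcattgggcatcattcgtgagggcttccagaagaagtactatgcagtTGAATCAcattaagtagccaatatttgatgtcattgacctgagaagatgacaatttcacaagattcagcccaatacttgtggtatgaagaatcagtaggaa
The next 3 belong to peaks that lay outside H3K27ac but between neighbouring regions 500 bp apart, the shortest distance in the list. The peak 46.3 kb from PALMD lay 250 bp from the region on its left and 150 bp from that on its right. A peak whose nearest gene was PRMT6, 1392 kb away, lay 200 bp and 150 bp from its neighbours. A peak whose nearest gene was LPIN1, 431 kb away, lay 100 bp and 300 bp from its neighbours. Of 8 peaks examined at this distance, the first in genome order, these 3 held the heptamer and are printed for that reason, and the other 5 did not hold it.
Between, PALMD, chr1:100065251-100065450: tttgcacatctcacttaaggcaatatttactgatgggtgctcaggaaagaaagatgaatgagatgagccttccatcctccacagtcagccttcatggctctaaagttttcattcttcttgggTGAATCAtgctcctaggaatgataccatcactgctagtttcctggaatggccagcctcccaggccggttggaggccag
Between, PRMT6, chr1:106207276-106207475: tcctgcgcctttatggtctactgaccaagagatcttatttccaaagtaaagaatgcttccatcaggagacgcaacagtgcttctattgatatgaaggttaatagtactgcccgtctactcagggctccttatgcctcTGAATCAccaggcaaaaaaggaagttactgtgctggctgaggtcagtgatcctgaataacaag
Between, LPIN1, chr2:12317201-12317400: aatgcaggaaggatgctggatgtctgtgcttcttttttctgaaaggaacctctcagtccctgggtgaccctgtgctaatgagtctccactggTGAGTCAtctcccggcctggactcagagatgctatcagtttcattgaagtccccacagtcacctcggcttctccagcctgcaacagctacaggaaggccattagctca

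Most p300/CBP peaks lay in H3K27ac regions. Of the 9050 peaks, 6258 shared at least 1 bp with such a region, or 69.1% (95% Wilson interval 68.2% to 70.1%), which is 27.2 times the share of sequence that the regions cover. This share was between those of other lists. It was 19.7% (19.3% to 20.1%) for CTCF, the insulator protein, 64.0% (63.4% to 64.7%) for Pol II and 84.2% (83.7% to 84.6%) for H3K4me3, the promoter mark. Among peaks over 10 kb from a protein-coding TSS, 68.1% of p300/CBP, 47.2% of Pol II and 12.1% of CTCF peaks were inside H3K27ac, with intervals that did not overlap. Wider p300/CBP peaks were inside more often. The share was 55.0% (53.4% to 56.6%) for peaks of 100 bp, 76.4% (74.4% to 78.2%) for those of 200 to 250 bp and 87.2% (85.7% to 88.6%) for those of 300 to 400 bp. Peak width stands in for the missing height only in part.

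The share inside varied between chromosomes, from 48.8% on chromosome 19 to 81.4% on chromosome 17, with a median of 70.7%, and was over 60% on 20 of 23. The low values moved with repeated sequence. A p300/CBP peak was said to share a word where a run of 24 bases recurred in another p300/CBP peak more than 10 kb away. In chr8:86000001-87000000, 232 p300/CBP peaks lay outside H3K27ac without exception and 230 of them shared a word. Chromosomes 19, 5 and 2 held 5 other Mb with at least 30 peaks each, and most peaks in every one of these shared a word. Without peaks that shared a word, the share inside was 74.5% in all, 82.3% (74.6% to 88.0%) on chromosome 19, 73.2% (69.2% to 76.9%) on chromosome 8 and lowest on chromosome X at 61.4% (50.9% to 70.9%). For the peaks far outside H3K27ac, values without these peaks are therefore also given, except for gene bodies.

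Inside H3K27ac regions, p300/CBP lay towards the middle. The centres of 6200 peaks were inside, at a median of 1125 bp from the nearest edge (quartiles 750 and 1750 bp) and 350 bp from the middle of the region (quartiles 150 and 900 bp). An even spread along the same regions would give a median of 812 bp to the edge. The centre was nearer to the middle than to the edge for 82.4% (81.4% to 83.3%), where an even spread gives 50%. For the 5706 CTCF centres inside H3K27ac this was 58.2% (57.0% to 59.5%), 24.2 percentage points lower (Newcombe interval 22.6 to 25.8). Under 200 bp from an edge lay 56 p300/CBP centres (0.903%) and 681 CTCF centres (11.9%).

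The central position depended on the width of the region. In regions under 1 kb, with 165 p300/CBP centres, 77.6% (70.6% to 83.3%) were nearer to the middle than to the edge, and 24.2% lay under 200 bp from an edge. In regions of 1 to 2 kb, 93.7% (92.1% to 94.9%) of p300/CBP centres were nearer to the middle than to the edge, and in those of 2 to 4 kb 89.2% (87.9% to 90.4%). The share was lower in wider regions, at 76.4% (74.3% to 78.4%) at 4 to 8 kb and 56.9% (53.4% to 60.4%) at 8 kb and over. CTCF was less central in each of these width classes, at 64.8%, 55.2%, 49.6% and 42.4%. In regions with 1 p300/CBP centre the value was 88.9% (87.9% to 89.9%).

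**Figure D1:**
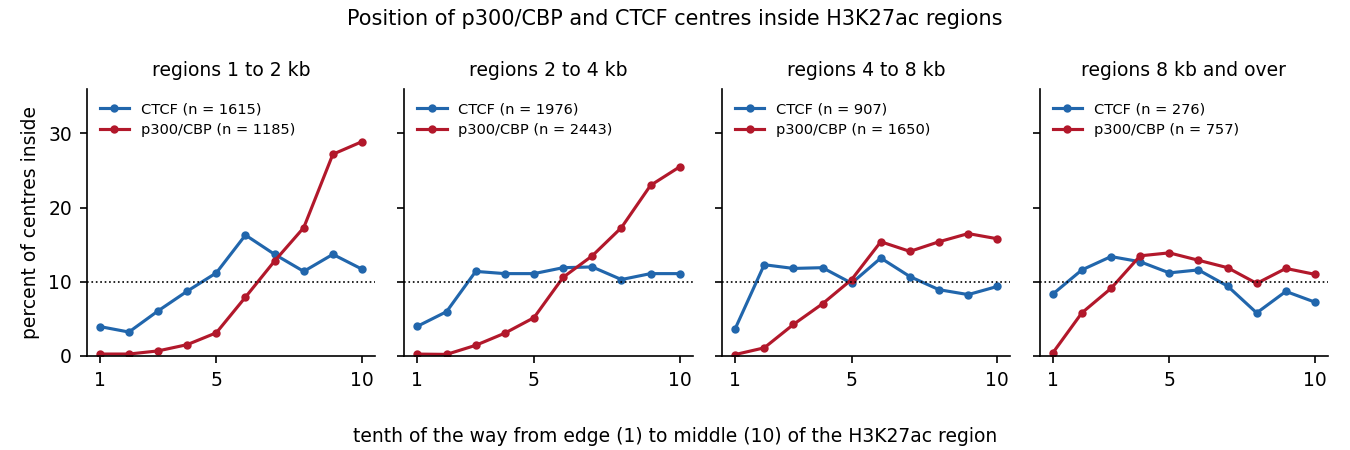
Percent of p300/CBP (red) and CTCF (blue) centres inside H3K27ac regions (y axis) in 10 equal steps from the edge to the middle of the region (x axis), for 4 classes of region width from 1 kb, with the value of an even spread dotted. In regions of 1 to 2 kb, 28.9% of p300/CBP centres were in the step nearest the middle and 0.253% in that nearest the edge, and the curve is flatter in wider regions.

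Around the edges themselves p300/CBP was scarce. Its density was 3.82 centres per Mb (exact Poisson interval 2.89 to 4.96) in the 200 bp just inside an edge, and 20.1 (17.6 to 22.8) from 200 to 400 bp. It reached 129 (123 to 135) at 600 to 1000 bp and 200 (193 to 208) at 1000 to 2000 bp. Just outside the edge lay a smaller maximum. Density was 11 (8.81 to 13.6) in the first 100 bp, 36.9 (33.9 to 40.1) from 100 to 300 bp and 10.5 (8.84 to 12.3) from 300 to 500 bp. It was 0.925 (0.701 to 1.2) from 1000 to 2000 bp outside. Pooled over regions of all widths, the profile thus had a maximum on either side of the edge with a trough between them. Narrow regions have no sequence far inside, so the bins do not hold the same regions. The centres inside lay in regions with a median width of 3250 bp. For peaks up to 500 bp outside, the nearest region had a median width of 450 bp. CTCF was also lower just inside the edge than outside it, at 46.5 (43 to 50.1) in the 200 bp inside the edge against 87.1 (82.5 to 91.9) at 100 to 300 bp outside.

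**Figure D2:**
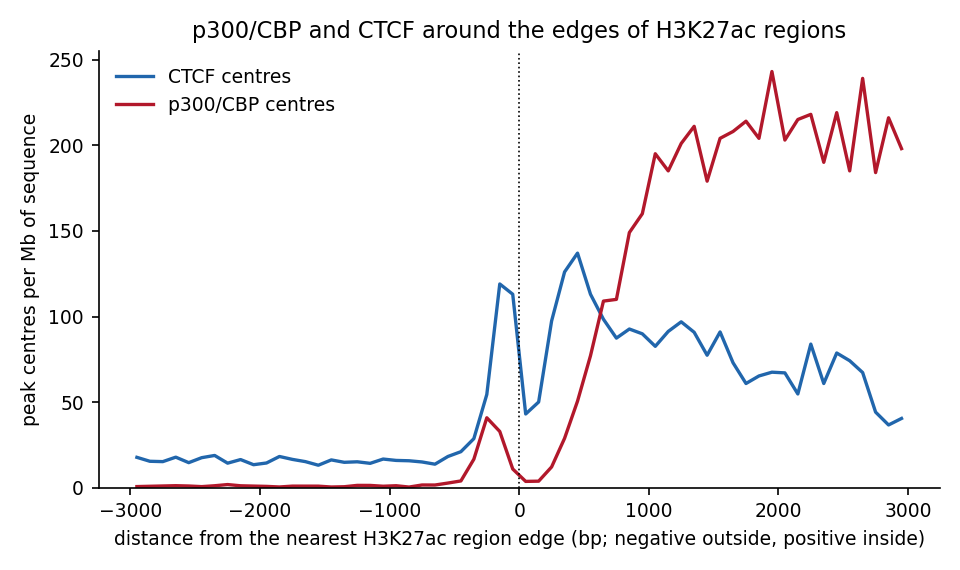
Peak centres per Mb of sequence (y axis, 100-bp bins) against distance from the nearest H3K27ac edge in bp (x axis, outside negative, inside positive) for p300/CBP (red) and CTCF (blue). p300/CBP is low at the edge, has a small maximum of 40.9 per Mb at 200 to 300 bp outside and climbs inside over about 1000 bp, whereas CTCF is highest within 500 bp of the edge. Regions of all widths are pooled, and only wider ones supply sequence far inside.

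Of the 2792 p300/CBP peaks outside H3K27ac, 766 lay up to 500 bp from an edge, or 27.4% (25.8% to 29.1%), and only 91 (3.26%) between there and 2000 bp. Another 1613 were more than 10 kb away, and the median gap was 19275 bp (17050 to 21500). Without shared words the median was 9300 bp, and 686 of 2018 peaks, or 34%, lay up to 500 bp from an edge. The near group was thus of similar size with and without them. The centres of the 766 near peaks were at a median of 200 bp from the edge (quartiles 150 and 275 bp). Their nearest H3K27ac region was narrow, with a median width of 450 bp (quartiles 300 and 750 bp) against 1300 bp over all regions. For 522 of them, or 68.1%, no H3K27ac region lay within 2000 bp on the other side, and 212 of the peaks outside lay between regions up to 1000 bp apart.

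Short gaps between H3K27ac regions held p300/CBP more often than flanks of the same length on the outer sides. Of 6277 gaps up to 2000 bp, 242 held a p300/CBP peak, or 3.86% (3.41% to 4.36%), against 71 of 11509 flanks, or 0.617% (0.489% to 0.777%). The difference was 3.24 percentage points (2.76 to 3.76). It was largest in the shortest gaps. In gaps of 500 to 600 bp the shares were 7.25% and 0.571%, and in longer ones of up to 800 bp 4.47% and 0.519%. In gaps of over 800 and up to 1000 bp they were 1.05% and 0.220%, a difference of 0.826 points (0.159 to 1.84). In gaps of over 1000 bp they were 1.08% and 0.906%, a difference of 0.172 points whose interval (-0.353 to 0.783) included 0. No gap under 500 bp could be seen, since the authors joined H3K27ac across shorter ones.

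The other lists separated near from distant outside peaks. H3K4me1, a mark of enhancers, covered 93.3% (92.6% to 93.9%) of the p300/CBP peaks inside H3K27ac and 88.0% (85.5% to 90.1%) of those up to 500 bp outside. It covered 58.8% (54.0% to 63.5%) of those from there to 10 kb and 28.8% (26.6% to 31.0%) of those farther away. Near peaks were thus closer in this mark to inside peaks than to distant ones. They differed more in Pol II, which overlapped 23.7% (22.6% to 24.8%) of the peaks inside and 1.96% (1.19% to 3.21%) of the near ones, and in H3K4me3, at 14.3% (13.4% to 15.2%) and 1.70% (0.994% to 2.88%). CTCF overlapped about as few in each class, from 0.969% to 2.08%. Without shared words, H3K4me1 covered 44.5% (41.5% to 47.6%) of the peaks over 10 kb away, Pol II 0.607% (0.279% to 1.32%) and H3K4me3 0.911% (0.480% to 1.72%). Of all the peaks over 10 kb away, 67.4% (65.1% to 69.6%) were in none of the other lists and 38.7% (36.4% to 41.1%) shared a word, against 5.86% of those inside. Without shared words, 54.1% (51.0% to 57.2%) were in none of the other lists.

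**Figure D3:**
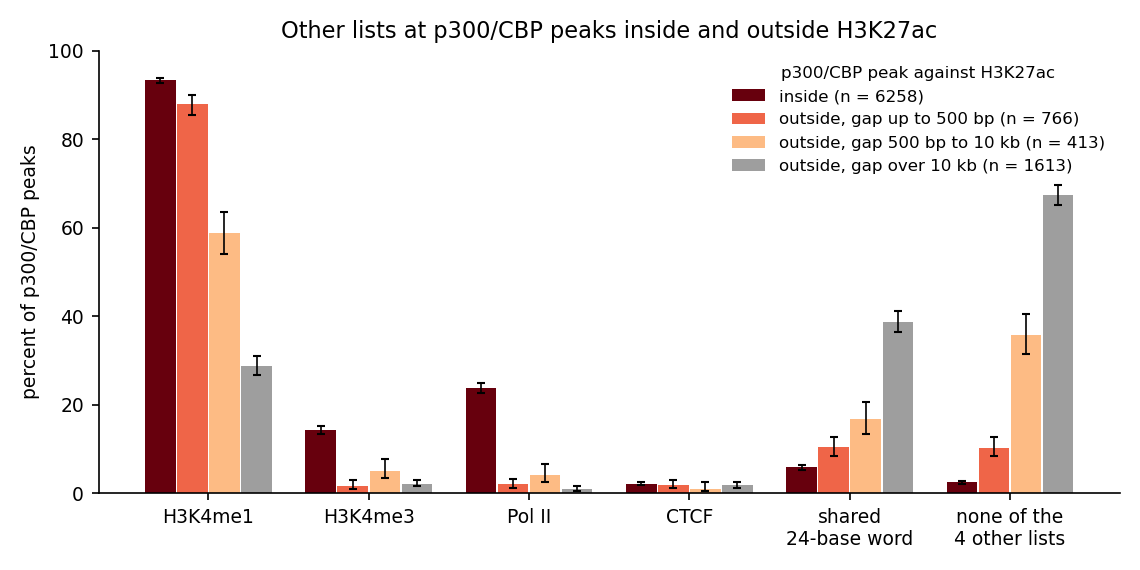
Percent of p300/CBP peaks (y axis) that overlap 4 other lists, share a 24-base word, or are in none of the other lists, for peaks inside H3K27ac and in 3 classes of gap to the nearest edge; bars start at 0 and whiskers are 95% Wilson intervals. Peaks up to 500 bp outside are close to those inside in H3K4me1 (88.0% and 93.3%) and far below them in Pol II (1.96% and 23.7%).

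Seen from H3K27ac, few regions held p300/CBP. At least 1 bp was shared by 4847 of 38606 regions, or 12.6% (12.2% to 12.9%). The share rose with width. It was 0.535% (0.408% to 0.701%) for regions of up to 600 bp, 4.40% (4.01% to 4.82%) for 650 to 1300 bp, 13.1% (12.4% to 13.8%) for 1350 to 2250 bp and 32.8% (31.9% to 33.8%) for 2300 bp and over. A wide region offers more sequence, but the density of centres rose as well, from 10.9 to 46.3, 80.8 and 117 per Mb of region. Of the regions with a centre inside, 3715 held 1 and 1079 held at least 2, and the latter had a median width of 4600 bp. Neighbouring centres in a region were a median of 975 bp apart (quartiles 300 and 2225 bp).

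The share also rose with distance from a TSS. Of 7713 H3K27ac regions that held the canonical TSS of a protein-coding gene, 206 had p300/CBP, or 2.67% (2.33% to 3.05%). The share was 2.53% (2.11% to 3.03%) for regions within 2.5 kb of a TSS, 9.79% (8.90% to 10.8%) at 2.5 to 10 kb, 14.5% (13.8% to 15.2%) at 10 to 50 kb, 18.6% (17.6% to 19.7%) at 50 to 100 kb and 23.7% (22.8% to 24.7%) beyond 100 kb. The first 2 classes did not differ beyond their intervals, and each later class was above the one before it. Regions with a TSS were wide, with a median of 2300 bp against 1100 bp for those over 10 kb away, so width ran against this order. In the widest quartile the share was 5.23% (4.58% to 5.98%) with a TSS inside and 67.7% (65.3% to 70.0%) beyond 100 kb, a difference of 62.5 points (60 to 64.9). In regions of at least 5 kb it was 24.3% (21.0% to 27.9%) and 88.2% (84.1% to 91.4%). The odds ratio of regions over 10 kb away against those with a TSS was 8.25 (7.15 to 9.51), and 31.9 (27.2 to 37.4) within width quartiles. With the TSSs of all basic transcripts the odds ratio was 3.54 (3.24 to 3.87), and 11.9 (10.7 to 13.2) pooled over width quartiles.

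**Figure D4:**
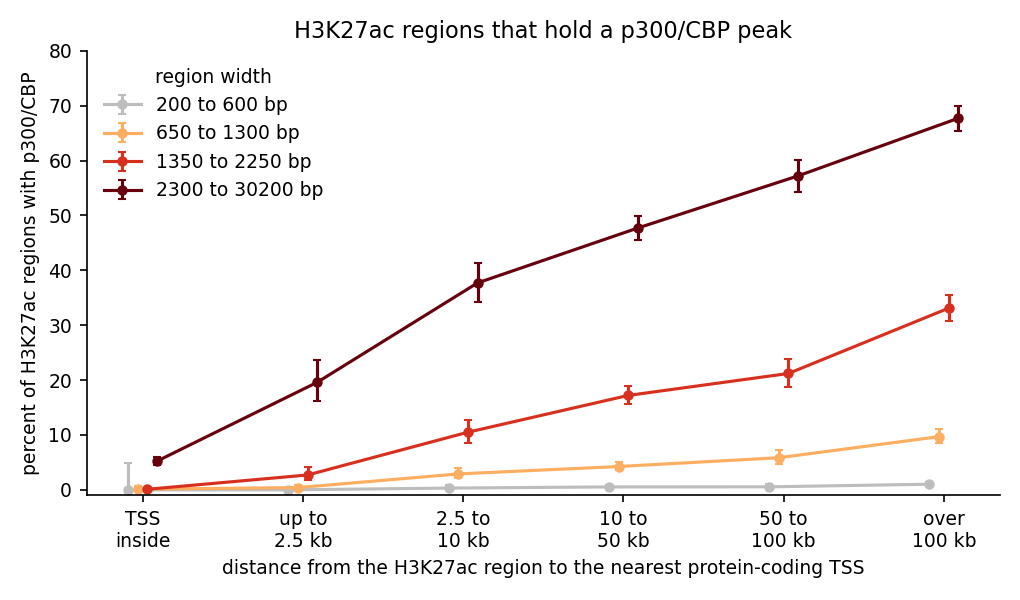
Percent of H3K27ac regions that hold a p300/CBP peak (y axis) by distance to the nearest protein-coding TSS (x axis), with 1 line for each quartile of region width and 95% Wilson intervals as bars. The lines climb from left to right, in the widest quartile from 5.23% with a TSS inside to 67.7% beyond 100 kb.

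In regions that held a TSS, p300/CBP was less frequent within 1500 bp of the TSS than an even spread gives. The 298 centres in such regions lay a median of 2474 bp from the TSS (quartiles 1190 and 4677 bp). Within 500 bp lay 34 of them, or 11.4% (8.28% to 15.5%), and within 1500 bp 97, or 32.6% (27.5% to 38.1%). An even spread over the same regions gives 15.6% and 41.2%, above both intervals. Upstream of the TSS lay 47.3% (41.7% to 53.0%), an interval that includes an even division.

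Regions over 10 kb from a TSS and wider than 600 bp were compared within width quartiles. Those with p300/CBP overlapped Pol II, H3K4me3 and CTCF less often than those without it. The widest quartile spans 2300 to 30200 bp, and width was not matched within it. In the narrowest quartile, with 48 regions that held p300/CBP, the differences were 1.65 points for Pol II, 0.147 for H3K4me3 and -3.76 for CTCF, and every interval included 0. In the quartile of 1350 to 2250 bp, Pol II overlapped 6.19% of 1099 regions with p300/CBP and 25.9% of 3622 without, a difference of -19.7 points (-21.6 to -17.6). The difference was -13.8 points (-16.3 to -11.1) for H3K4me3 and -7.25 (-8.88 to -5.43) for CTCF. In the widest quartile it was -8.19 points (-11.1 to -5.29) for Pol II, -6.48 (-9.37 to -3.58) for H3K4me3 and -7.39 (-9.67 to -5.14) for CTCF. With the TSSs of all basic transcripts, the differences in the widest quartile were -3.14 points (-6.81 to 0.51) for Pol II and 1.19 (-2.48 to 4.83) for H3K4me3, both with intervals that included 0, and -5.19 (-8.02 to -2.44) for CTCF. At 1350 to 2250 bp, also with these TSSs, the difference was -12.1 points (-14.2 to -9.71) for Pol II. It was -5.92 (-8.71 to -2.9) for H3K4me3 and -6.32 (-8.19 to -4.21) for CTCF. The size of the Pol II and H3K4me3 differences thus depended on which TSSs were counted, in both of these quartiles.

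AP-1 heptamers were frequent under p300/CBP peaks. The letters TGANTCA, which are their own reverse complement and so cover both strands, were in the central 200 bp of 52.8% (51.5% to 54.0%) of the peaks inside H3K27ac. They were in 51.2% (47.6% to 54.7%) of the peaks up to 500 bp outside. The interval of the near peaks contained the value of the inside peaks. The share was 31.5% (27.2% to 36.1%) from there to 10 kb and 23.1% (21.1% to 25.3%) farther away, where it was 31.6% (28.8% to 34.6%) without shared words and 9.58% (7.5% to 12.2%) with them. In windows on a 10-kb grid over the same sequence it was 6.26%, in CTCF peaks 5.66% (5.43% to 5.90%), and at the centres of H3K27ac regions 20.6% (19.5% to 21.8%) with p300/CBP and 12.8% (12.5% to 13.2%) without. In regions that held a TSS the p300/CBP peaks had the heptamer in 51.0% (45.4% to 56.6%).

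The matches gathered at the peak centre. Inside H3K27ac, 20.5 per 100 peaks fell in the 50 bp to the right of the centre and 2.37 in the bin from 150 to 200 bp. The middle base was C or G in 71.8% (70.5% to 73.2%) of the matches and in 48.3% of those on the grid. Other letters, chosen after earlier results were known and searched on both strands, differed from the grid by smaller ratios. GGAATG, which TEAD factors bind, was in 26.1% (25.1% to 27.2%) of the peaks inside and 10.5% of grid windows. TGTGGTT, of RUNX factors, was in 12.2% (11.4% to 13%) and 3.88%. A match is a description of the letters and does not show that a factor was bound.

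**Figure D5:**
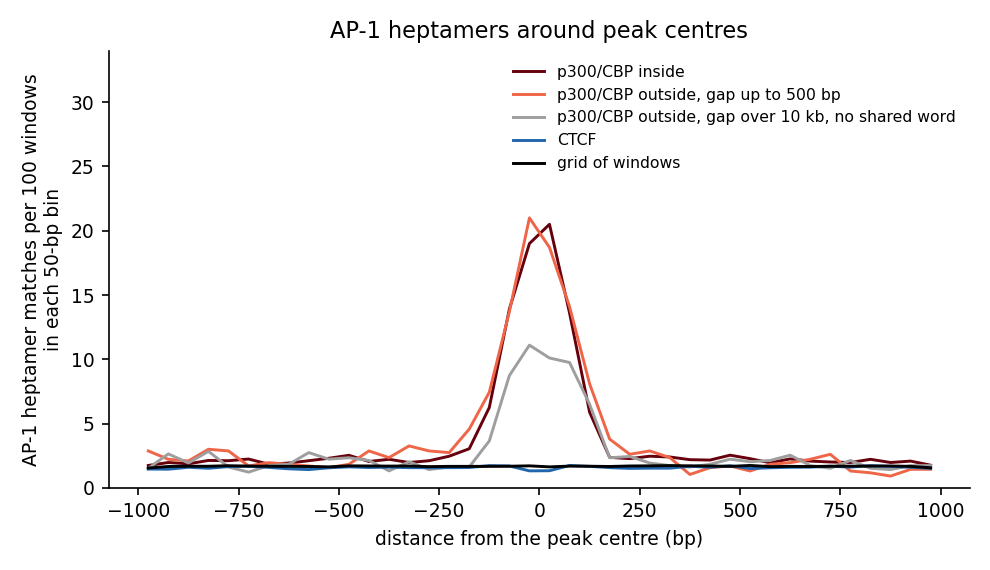
AP-1 heptamer matches per 100 windows in 50-bp bins (y axis) against distance from the peak centre in bp (x axis) for p300/CBP peaks inside H3K27ac, up to 500 bp outside and over 10 kb outside without shared words, for CTCF peaks and for grid windows. The inside and near curves rise together to about 20.5 at the centre, the distant curve is lower, and CTCF stays close to the grid.

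Of the 10 H3K27ac regions with the most p300/CBP centres, 2 held a TSS. Of the 10 widest regions without p300/CBP, 9 held one. Both groups were wide, at 3950 to 28000 bp and 13400 to 21950 bp. A TSS lay in 20% of all regions but in 3859 of the 9585 regions of the widest quartile. The richest was chr10:95216201-95244051, over introns and the TSS of MYOF, a gene of membrane repair, with 7 centres in 27850 bp. The region chr18:107901-111851 also held 7, in 3950 bp, together with 6 CTCF peaks. Introns of ITPK1 and CADPS and the gene ENC1 held regions with 6 centres each. The widest region without p300/CBP was chr11:118779501-118801451 at BCL9L, a Wnt coactivator gene (21950 bp), followed by those at NR2F2, a nuclear receptor gene (16950 bp), and CD151, a tetraspanin gene (15900 bp). CDKN1B, a cell cycle inhibitor gene, and SDC4, a syndecan gene, were also in this group. So was chr11:65654301-65667701 (13400 bp), whose centre lay in an intron of FOSL1.

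The number of p300/CBP centres inside H3K27ac within 100 kb of the TSS was counted for named genes. Of all 18525 protein-coding genes, 24.5% had at least 1. The study chose 35 genes as viewpoints of its chromatin contact assay from its own work on these cells, so they are no independent sample. In the kept sequence lay 33 of them, and 31 had at least 1 centre, with a median of 2, while TMC6 and TCF7L2 had none. KRT80, a keratin gene, had 6, and HK2, a hexokinase gene, CD44, an adhesion receptor gene, CDCP1 and GALNT2 had 5 each. H3K27ac covered 25 of their TSSs, and 2 of these TSS regions held p300/CBP. At ZNF114 the nearest peak was at -0.137 kb from the TSS, negative values being upstream. This gene lies in chr19:48000001-49000000, a crowded Mb where 52 of 59 p300/CBP peaks shared a word and 7 were inside H3K27ac. FOSL1, which encodes Fra-1, had 4 centres, the nearest at -2.92 kb.

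Of 10 AP-1 genes, 7 had at least 1 centre, JUN had the most with 7, and FOS, JUNB and JUND had none. Of the 11 mesenchymal or basal b genes, 10 had at least 1, with a median of 4. PLAU, which encodes urokinase, had 8, VIM, the intermediate filament vimentin, had 5 with the nearest at 0.311 kb, and ZEB1 had none. Of the 11 luminal or epithelial genes, 5 had at least 1 (GATA3, CDH1, EPCAM, TFF1 and ELF3), with 3 at GATA3. At TFF1 the peak lay at -0.457 kb. ESR1, PGR, FOXA1, ERBB3, KRT8 and KRT18 had none. In each of these lists, the luminal one included, the share with at least 1 was above the 24.5% of all protein-coding genes. Genes such as CAV1, CAV2 and MET are neighbours and share peaks, and FOSL1 and CD44 are each in more than 1 list.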

How the data were processed

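Per the labels and the study's methods, the authors aligned reads to hg19 (BWA-backtrack in the methods, Bowtie2 in the labels), built a signal of uniquely mapped reads in bins with PASHA, merged replicates and called peaks with a signal threshold in IGB. The deposited lists hold peak starts and ends in bp, in steps of 50 bp, without counts, heights or scores. Coordinates are printed as listed. Input libraries were not analysed here. No column was left without a sample or group (0).

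Overlaps (at least 1 bp), distances and letters were computed with NumPy 2.4.6, SciPy 1.17.1 and Python 3.11.15 on GRCh37, with GENCODE 44 mapped to it (1 canonical TSS per protein-coding gene), and drawn with matplotlib 3.10.9. On simulated data, 0 of 2401 outputs of the functions for overlaps, distances and odds ratios were wrong. The search for letters was not part of that check. Wilson, Newcombe, exact Poisson and Mantel-Haenszel intervals were used. Alternatives changed the overlap, the peaks and regions kept, the joining of peaks, the TSS set, the gap length and the window. The members, lists and tests were chosen with earlier results of these data known. The regions named were drawn from the 10 with the most p300/CBP centres, the 10 widest without p300/CBP and the widest peaks inside. The widest peaks outside, of up to 1800 bp, all shared a word and are not named. The genes named were the viewpoint, AP-1 and marker lists.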

Additional observations from a re-analysis of the deposited data

How the results depend on the processing

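No paired analysis was possible because each list was called on merged libraries, and no replicate could be left out. Of 40 alternative values for 9 results, 17 stayed within the interval of the reported value, 23 did not and 0 reversed. The share of p300/CBP peaks inside H3K27ac was 78.9% for peaks at least as wide as their median, 63.9% with H3K27ac regions at least as wide as theirs, 50.1% with all peaks of chromosomes 1 to 22 and X and 70.8% with peaks under 500 bp apart joined. Without shared words it was 74.5%, and without Mb that held 30 or more peaks 72.5%. The median distance to the edge was 1250 bp for wide peaks and 975 bp in regions with 1 centre, where 88.9% were nearer the middle. The median gap of the peaks outside was 22925 bp with all peaks, 14750 bp with joined peaks, 9300 bp without shared words and 10900 bp without crowded Mb. H3K27ac regions with p300/CBP made up 9.17% with wide peaks and 12% without shared words. The widest quartile held p300/CBP 61.3 times as often as the narrowest, and 10.8 times as densely per Mb. The odds ratio for distance to a TSS was 31.9 pooled over width quartiles, 3.54 with all basic transcripts and 11.9 with both. Short gaps held p300/CBP in 5.19% up to 1000 bp and in 3.38% without shared words. The AP-1 heptamer was in 59.7% of 300-bp windows and in 55.7% of wide peaks. The settings on shared words and crowded Mb and the combined TSS setting were chosen after seeing the data. A stricter peak threshold could be approached only through width, because heights were not in the lists used here.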

Other observations

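C/EBP and forkhead letters were also searched in the central 200 bp of p300/CBP peaks, on both strands, after earlier results were known. TTGCNNAA, of C/EBP factors, was in 15% (14.2% to 15.9%) of the peaks inside H3K27ac, in 17.9% (15.3% to 20.8%) of those up to 500 bp outside and in 10.8% of grid windows. TGTTTAC, of forkhead factors, was in 8.10% (7.45% to 8.80%) of the peaks inside, in 12.3% (10.1% to 14.8%) of the near ones and in 3.10% of grid windows. The core CTCF letters were in 0.511% of the peaks inside, 26.5% of CTCF peaks and 0.496% of grid windows. The median GC content of the windows was 43.5% inside, 41% for near peaks, 51.5% at the centres of H3K27ac regions without p300/CBP and 40% on the grid.

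Of the p300/CBP peaks inside H3K27ac, 48.7% (47.4% to 49.9%) lay in the body of a protein-coding gene, as did 31.2% (29.0% to 33.6%) of those over 10 kb outside, where gene bodies made up 46.7% of the kept sequence. Of the 1613 peaks over 10 kb outside, 625 shared a word, and no value without them is given.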
